A study of Mus musculus with 13 samples.

Results

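Rectal adenocarcinomas were compared with normal rectal mucosa of control mice on 9 of the 13 arrays of the series. The arrays were chosen by their tissue label. The adenocarcinoma group held 5 arrays, numbered 1, 2, 3, 4 and 6, from rectal prolapses of α6fl/fl Villin-Cre mice, with 2 females (1 and 6) and 3 males. These mice were 53, 60, 60, 64 and 80 weeks old in that order. Their tumours were located by a pathologist on stained cryosections and cut out of neighbouring thick sections. The normal group held 4 arrays, numbered 1, 2, 4 and 6, of rectal mucosa scraped from the opened recto-anal region of matched controls, with 2 females (1 and 6, aged 53 and 70 weeks) and 2 males (2 and 4, aged 60 and 64 weeks). One label field gives the normal samples the floxed Villin-Cre genotype too, whereas another calls them control. The remaining 4 arrays were inflamed mucosa cut from the same prolapses (numbers 1 to 4, with the sex and age of the tumours of those numbers), and are used below only as a second comparison. Villin-Cre acts in the intestinal epithelium, so the other cells of these tissues keep the α6 integrin gene. Tumour and normal mucosa differed at once in prolapse, in how the tissue was collected and, by the label that calls the normal samples control, in genotype. These differences cannot be told apart here.

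The surface of the large bowel is a single sheet of epithelium. Colonocytes at the top of the crypts take up sodium, chloride, short-chain fatty acids and water, goblet cells secrete mucus, and stem cells at the crypt base renew both under Wnt signals. The sheet rests on a basement membrane of laminins and type IV collagen, to which hemidesmosomes built on α6β4 integrin attach it. In adenocarcinomas of the large bowel, glands of tumour cells lie in a stroma of fibroblasts, vessels and immune cells that makes matrix and the enzymes that cut it.

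Values are log2 expression values, and differences are tumour minus normal on that scale, where 1 stands for 2-fold. A gene was called when limma gave it a Benjamini-Hochberg adjusted p below 0.05 over the 19938 genes tested. Of all genes, 3266 were higher in adenocarcinoma (16.4%) and 3867 lower (19.4%). Without normal mucosa 2 the lower genes numbered 2543. At least 2-fold differences were called for 864 genes upwards (4.33%) and 525 downwards (2.63%). The median difference over all genes was -0.10, and the lists described below should be read against these figures. How many genes went each way depended on the scaling, with 2491 higher and 8612 lower once arrays were centred on their medians, and 3400 and 2911 with cyclic loess. The median over all genes was -0.24 with the first and -0.01 with the second. With centred arrays, falls numbered 10 of 14 pan-epithelial, 13 of 24 T and NK cell, 10 of 18 tuft cell, 10 of 33 cytokine, 9 of 32 acute phase, 7 of 15 gastric-type, 6 of 11 enteric nerve, 5 of 25 stem cell and Wnt, 4 of 19 EGF family and 5 of 25 endoplasmic reticulum genes, each over 1.5 times the count given below. Among the 7133 genes called, the tumour and normal arrays did not overlap in 4973 (69.7%). Of all 19938 genes, called or not, every tumour lay above every normal array in 2591 and below in 2763. Counts without overlap in the lists below should be read against these. In these bulk samples, fewer cells of a type and less RNA per cell cannot be told apart. The labels number the arrays of a group and give each a sex and an age but do not state that each is 1 mouse, so p-values measure only the spread between these samples, which may in part be technical, and precision is limited by how few arrays there are. The medians of the arrays ran from 6.41 to 6.59, the sex labels were met on 13 of 13 arrays, and transcripts absent by sex read up to 5.57, so values below that are near background. Where a group's mean lay below that level (normal mucosa for Mmp13, Mmp8, Ereg, Reg3g, Retnlg, Cxcl2 and Il1a, tumours for Saa1, Saa2 and Mx1), the difference printed is that of the measured values and only a lower bound on the change.

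**Figure D1:**
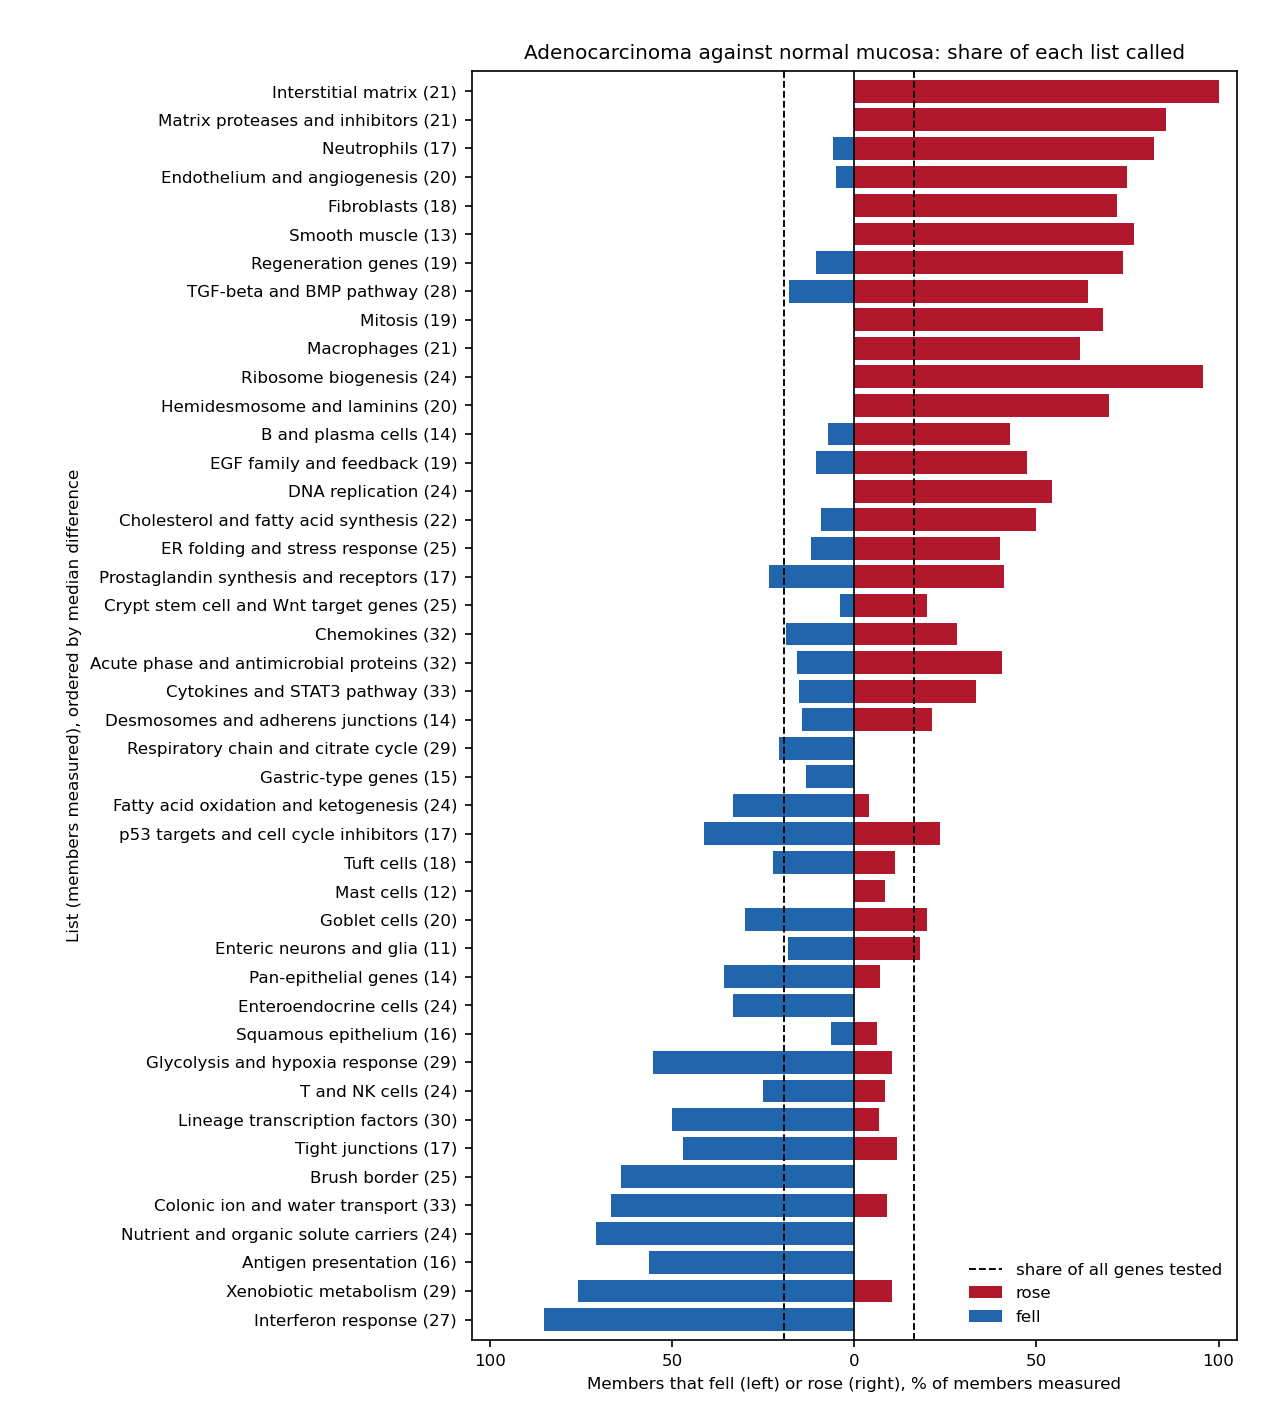
Share of the measured members of 44 gene lists that fell (blue, left) or rose (red, right) in 5 adenocarcinomas against 4 normal mucosa arrays (limma, adjusted p below 0.05), in percent of the members measured, with the lists ordered by their median difference. Dashed lines give the shares over all genes, 19.4% and 16.4%; all 21 interstitial matrix genes rose and 23 of 27 interferon response genes fell.

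Normal mucosa 1 stood apart from the other normal arrays. It lay at -46.5 on the second principal component of the 9 arrays (11.2% of the variance), where the other normal arrays lay between 12.8 and 17.7. The mean over 16 markers of squamous epithelium, which lines the anal canal, was 9.18 on normal mucosa 1 and between 5.93 and 6.12 on the other normal arrays. Adenocarcinomas 2 and 3 were at 7.68 and 6.98 on this list, and adenocarcinomas 1, 4 and 6 at 6.53, 6.20 and 6.42. The basal keratin Krt5 was at 12.10 on normal mucosa 1, at 11.17 and 10.70 in adenocarcinomas 2 and 3, and at or below 7.38 on the other 6 arrays. Squamous transcripts were thus high on 1 normal array and 2 tumour arrays. T and NK cell markers were also higher on normal mucosa 1 (list mean 7.12) than on any other of the 9 arrays (5.84 to 6.08). Their part in the results below was not tested, and values without normal mucosa 1 are given beside the genes it moved most. Leaving it out also turned the median of the squamous list from -0.33 to 0.36 and that of the desmosome list from -0.03 to 0.03. Of list counts not treated below, falls in the stem cell and Wnt list numbered 2 in place of 1 without it, and rises numbered 1 in place of 2 in tight junctions, 2 in place of 1 in mast cells and 1 in place of 0 in gastric-type genes. Epithelial markers were high on all 9 arrays, and also in inflamed mucosa (list mean 11.81 to 11.97), so they cannot check which tissue a label names. The mean over 14 pan-epithelial genes lay between 11.96 and 12.05 in tumours and between 12.09 and 12.24 in normal mucosa. In that list Krt18 rose by 0.51 and 5 genes fell, the most by 0.73 (Cldn3), and falls numbered 3 without normal mucosa 1, adenocarcinoma 4 or adenocarcinoma 6.

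**Figure D2:**
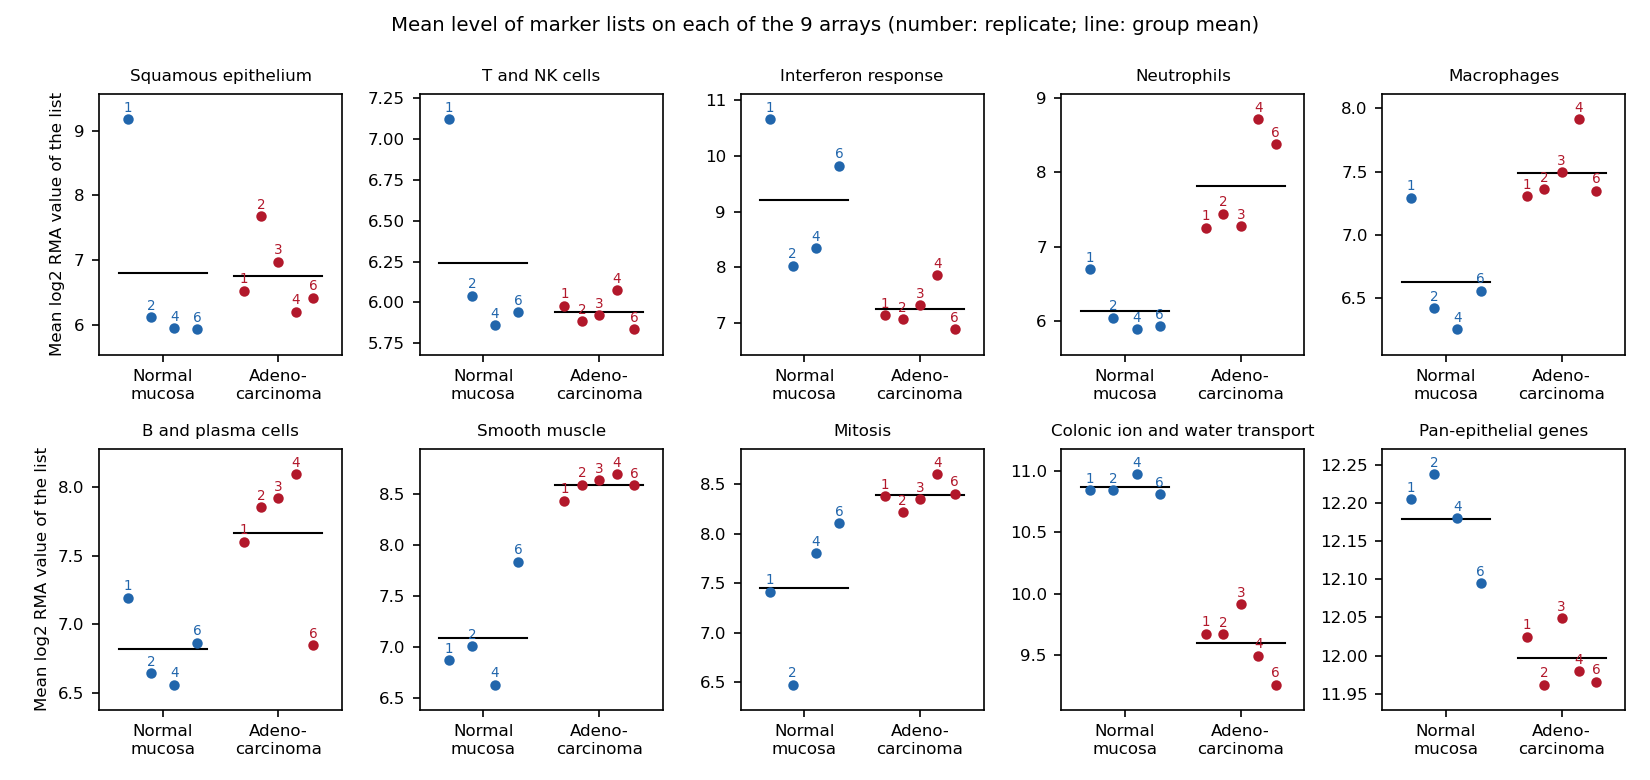
Mean log2 value of 10 marker lists on each of the 4 normal mucosa arrays (blue) and 5 adenocarcinoma arrays (red), with the replicate number over each point, a line at the group mean and an axis of its own for each list. Normal mucosa 1 stands above the other normal arrays in squamous epithelium and in T and NK cells, and the pan-epithelial axis spans only 11.96 to 12.24.

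Itga6, which encodes the α6 chain deleted in the epithelium, was read by transcript cluster 10472820. Its values were 11.50, 11.52, 11.62, 11.60 and 11.44 in adenocarcinomas 1, 2, 3, 4 and 6 and 10.96, 10.75, 11.16 and 10.76 in normal mucosa 1, 2, 4 and 6. This order of arrays is kept in all the sentences that follow. All 5 tumours lay above all 4 normal arrays. The difference was 0.63 ± 0.10 (SE, n = 5 and 4, adjusted p = 0.000272), with n the same for every tumour and normal comparison below. Itgb4, its partner chain, read 11.70, 11.75, 11.73, 11.55 and 11.79 in tumours and 11.18, 11.51, 11.03 and 11.36 in normal mucosa. The groups did not overlap, and the difference was 0.43 ± 0.11 (adjusted p = 0.00762). Which exons of Itga6 are deleted was not stated by the labels, and other cell types keep the gene, so neither value checks the genotype label.

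Genes of salt and water uptake were low in the tumours. Of 33 measured genes of colonic ion and water transport, 22 fell, 15 of them at least 2-fold, and 3 rose. The list's median difference was -0.82. Car4, the membrane carbonic anhydrase of the surface colonocyte (cluster 10379866), read 6.96, 7.38, 7.96, 7.28 and 6.36 in tumours and 13.05, 13.28, 13.27 and 13.08 in normal mucosa. Even the highest tumour lay far below the lowest normal array, and the fall was 5.98 ± 0.25 (63.3-fold, adjusted p = 5.61e-09). Slc26a3, the chloride-bicarbonate exchanger, read 8.78, 9.40, 9.86, 7.75 and 5.95 in tumours and 12.83, 12.96, 13.09 and 12.85 in normal mucosa. Tumour 6 was the lowest by a wide margin, and without it the difference was -3.99 in place of -4.59. Slc9a3, the sodium-proton exchanger that works beside it, read 5.88, 5.99, 6.32, 5.38 and 4.97 in tumours, close to background, and 10.60, 10.35, 9.89 and 10.20 in normal mucosa, so that the groups were far apart (fell by 4.55 ± 0.24, adjusted p = 2.75e-08).

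The epithelial sodium channel, which draws sodium through the apical membrane under aldosterone, was lower in all of its 3 measured subunits: Scnn1g fell by 2.92, Scnn1a fell by 1.81 and Scnn1b fell by 1.16. Nr3c2, the aldosterone receptor itself, fell by 1.58. The genes that rose belong to the opposite task, the secretion of chloride and fluid. Slc12a2, the basolateral cotransporter that loads cells with chloride, read 11.37, 11.66, 11.64, 11.47 and 11.84 in tumours and 10.25, 10.25, 10.67 and 10.87 in normal mucosa. Tumours lay above normal mucosa without overlap (1.09 ± 0.13, adjusted p = 4.43e-05). Cftr, the apical chloride channel, read 8.90, 9.28, 8.89, 8.47 and 8.75 in tumours and 7.32, 7.13, 8.46 and 8.46 in normal mucosa. Its lowest tumour and its highest normal array nearly touched (1.02 ± 0.26, adjusted p = 0.00938). Kcnn4, a potassium channel that supports secretion, rose by 1.16 ± 0.24. With the replicate block, or without normal mucosa 1, 5 genes of the list rose in place of 3.

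**Figure D3:**
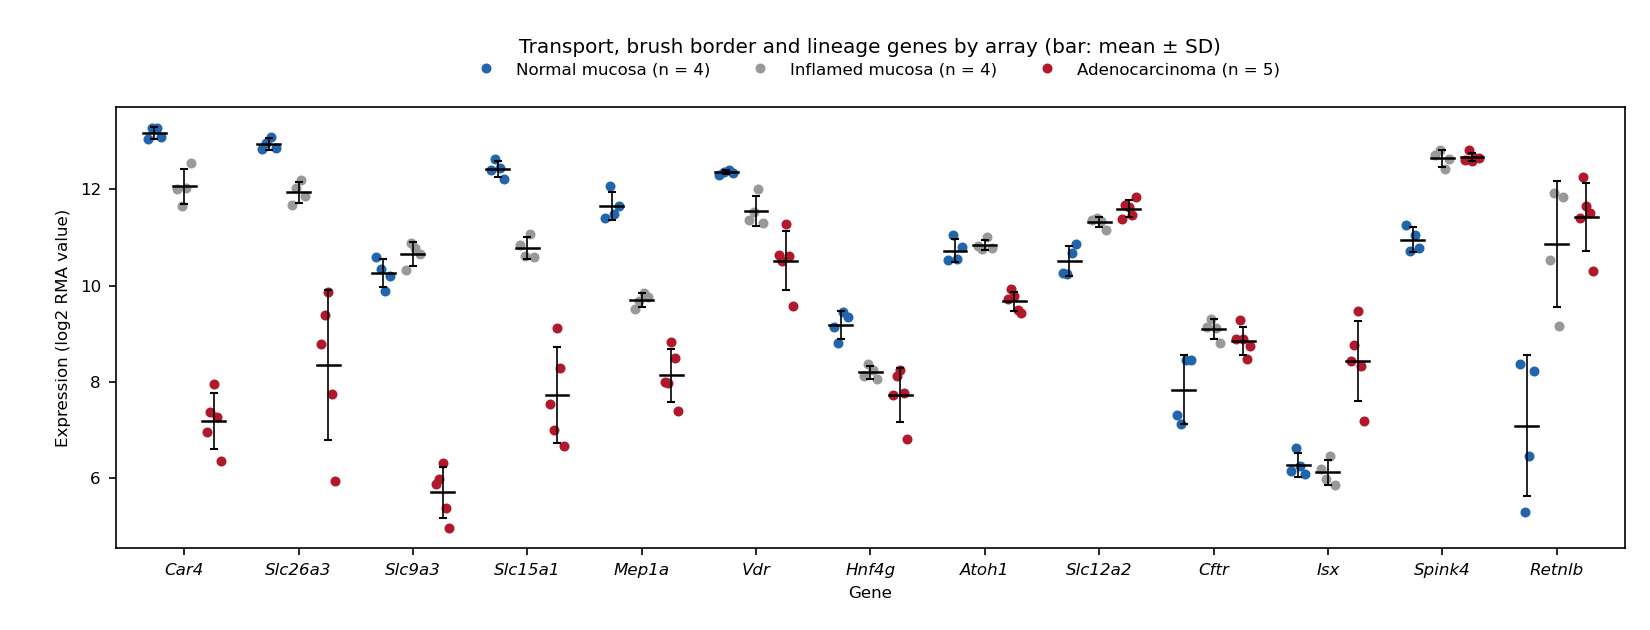
Log2 expression of 13 transport, brush border and lineage genes in normal mucosa (blue, n = 4), inflamed mucosa (grey, n = 4) and adenocarcinoma (red, n = 5), 1 point per array, with bars for the mean and SD. Car4, Slc26a3, Slc9a3, Slc15a1 and Mep1a lie lower in every tumour than in any normal array, whereas Slc12a2, Isx and Spink4 lie higher in every tumour.

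Carriers of nutrients and organic solutes and proteins of the brush border, the lawn of microvilli that bears them, were lower as well. Of 24 carriers 17 fell and none rose at this threshold (median -0.84), and of 25 brush border genes 16 fell and none rose (median -0.57). Slc15a1, the proton-coupled peptide transporter, read 7.54, 7.0005, 9.12, 8.30 and 6.68 in tumours and 12.41, 12.62, 12.44 and 12.21 in normal mucosa. The tumours spread widely, but none came near a normal array (fell by 4.69 ± 0.37, adjusted p = 8.55e-07). Mep1a, a subunit of the brush border protease meprin, read 7.998, 7.97, 8.83, 8.49 and 7.39 in tumours and 11.40, 12.06, 11.48 and 11.66 in normal mucosa. Here too the groups were wide apart (fell by 3.52 ± 0.23). Carriers of colonic fermentation products fell less, with Slc5a8, which takes up short-chain fatty acids, 0.90 lower and the monocarboxylate transporter Slc16a1 0.73 lower. Of the proteins that hold microvilli together, the cadherins Cdhr2 and Cdhr5 fell by 1.14 and 0.88 and the motor Myo1a by 0.61.

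Transcription factors that set intestinal identity split by gene. Of 30 measured, 15 fell, 2 rose and the median was -0.38. Vdr, the vitamin D receptor, read 10.63, 10.51, 11.27, 10.61 and 9.57 in tumours against 12.30, 12.36, 12.40 and 12.35 in normal mucosa. The 4 normal arrays lay within a narrow band and every tumour was below it (fell by 1.83 ± 0.25, adjusted p = 9.64e-05). Hnf4g, a nuclear receptor of enterocyte differentiation, read 7.73, 8.12, 8.24, 7.77 and 6.81 in tumours and 9.14, 8.81, 9.44 and 9.34 in normal mucosa, again without overlap (fell by 1.45 ± 0.23). Its relative Hnf4a fell by 0.73 and Klf4, a factor of differentiated epithelium, by 1.16. The caudal factors differed by 0.12 for Cdx1 and -0.08 for Cdx2, and neither was called.

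Isx, an intestine-specific homeobox gene that represses vitamin A uptake and conversion in the small bowel, went the other way. It read 8.43, 8.76, 9.48, 8.32 and 7.19 in tumours and 6.16, 6.64, 6.25 and 6.08 in normal mucosa. Every tumour was above every normal array, tumour 3 the highest and tumour 6 the lowest (2.15 ± 0.33, 4.45-fold, adjusted p = 0.000223). Inflamed mucosa averaged 6.13, and Isx was 2.31 higher in tumour than there (adjusted p = 0.00094). The only other factor of the list that rose was Sox4, by 0.57.

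Secretory cell genes did not move together. Atoh1, the factor that commits cells to the secretory lineage, read 9.72, 9.93, 9.79, 9.49 and 9.44 in tumours and 10.52, 11.04, 10.54 and 10.80 in normal mucosa. Tumours were lower without overlap (fell by 1.06 ± 0.13, adjusted p = 3.16e-05). Of 20 goblet cell genes, 6 fell and 4 rose. The main mucin Muc2 differed by 0.15 and the trefoil peptide Tff3 by -0.13, both not called and both near the top of the measured range, where arrays respond less. Spink4, a small secreted goblet cell peptide, read 12.61, 12.82, 12.59, 12.65 and 12.65 in tumours and 11.26, 10.71, 11.05 and 10.79 in normal mucosa, the tumours within a narrow band above all normal arrays (1.71 ± 0.12, adjusted p = 2.48e-07). Retnlb, a goblet cell protein made in response to bacteria and worms, read 11.41, 12.25, 11.64, 11.50 and 10.30 in tumours and 8.37, 5.31, 6.47 and 8.22 in normal mucosa. The normal arrays were spread widely below the tumours (4.33 ± 0.67, and 3.73 without normal mucosa 2). Bcas1 and Capn9 of the same list fell by 1.73 and 1.81.

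Enteroendocrine markers were lower or not called, and tuft cell markers lay close to the figures for all genes. Of 24 enteroendocrine genes 8 fell and none rose, led among stable calls by Tph1, the serotonin-making enzyme, which fell by 1.01 (adjusted p = 0.00944). With arrays centred on their medians 13 of them fell. Of 18 tuft cell genes 4 fell and 2 rose, where 19.4% and 16.4% of all genes did. Their median was -0.16, and that of all genes -0.10. The falls numbered 2 without normal mucosa 2 and 7 without normal mucosa 4. The genes that rose, Alox5ap (1.46) and Avil (1.08), are shared with other cells, Alox5ap with leukocytes. Dclk1, the marker gene of tuft cells, differed by -0.13 and was not called. Gastric-type genes, which some bowel tumours switch on, changed little, with 2 of 15 lower and none higher at this threshold. The list means overlapped (6.73 to 6.97 in tumours and 6.88 to 7.06 in normal mucosa), falls numbered 4 without adenocarcinoma 1, and 1 gene was higher with the replicate block.

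Crypt stem cell and Wnt target genes were mixed. Of 25 measured, 5 rose and 1 fell, with a median of 0.16. Without normal mucosa 4 or 6, 8 rose. Lgr5, the receptor that marks crypt base stem cells, read 6.61, 6.17, 6.53, 6.79 and 7.42 in tumours and 6.28, 6.45, 6.93 and 7.93 in normal mucosa. The groups overlapped fully and the difference of -0.19 ± 0.31 was not called (adjusted p = 0.63). Ascl2, a stem cell factor switched on by Wnt, read 6.33, 6.04, 6.61, 6.86 and 6.76 in tumours and 7.17, 7.17, 7.44 and 7.82 in normal mucosa, all tumours below all normal arrays (fell by 0.88 ± 0.19, adjusted p = 0.00341). The Wnt feedback genes Axin2 and Nkd1 differed by 0.11 and 0.12 and were not called.

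The genes of this list that rose included growth and adhesion genes that many cells share. Cd44, a hyaluronan receptor, read 9.9997, 10.13, 9.89, 10.55 and 10.93 in tumours and 9.17, 6.69, 7.19 and 7.73 in normal mucosa. Normal mucosa 1 was the highest normal array and still below the tumours (2.61 ± 0.38, adjusted p = 0.00017). Wif1, a secreted Wnt inhibitor, read 7.79, 8.01, 8.04, 8.76 and 7.83 in tumours and 6.32, 6.70, 6.495 and 6.26 in normal mucosa, with tumour 4 the highest and no overlap (1.64 ± 0.17). Ccnd1, a cyclin of the G1 phase, rose by 1.78 ± 0.18 and Myc, which drives growth, by 1.52 ± 0.24. Smoc2 completed the list of rises at 0.68.

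Of 19 regeneration genes, those that crypts switch on after damage, 14 rose and 2 fell (median 1.29). Which cells of these bulk samples made their transcripts was not tested. Clu, a secreted chaperone of revival stem cells, read 10.55, 9.56, 10.16, 11.23 and 11.40 in tumours and 8.65, 8.44, 8.66 and 7.92 in normal mucosa. All tumours were higher, with tumours 4 and 6 on top (2.16 ± 0.37, adjusted p = 0.000496). Cldn4, a claudin of the tight junction, read 12.11, 11.70, 11.53, 12.02 and 12.45 in tumours and 11.30, 11.63, 10.11 and 9.72 in normal mucosa. The lowest tumour lay below normal mucosa 2, so the groups overlapped (1.27 ± 0.36, adjusted p = 0.0152). The YAP targets Ccn1 and Ccn2 rose by 2.60 and 3.14. Tnfrsf12a, the receptor of TWEAK, rose by 1.69, the keratin Krt7 by 1.32 and the urokinase receptor Plaur by 2.06. Against inflamed mucosa 11 of the 19 were higher and none was lower (14 and 1 with the random replicate block), and Clu was 1.84 higher there (adjusted p = 0.0077). Among the falls was Hmga2, by 0.63, a chromatin gene of embryonic tissues. Sprr1a, which squamous epithelium also makes, was between 10.94 and 11.67 in tumours, at 12.00 on normal mucosa 1 and at most 8.11 on the other normal arrays. Its difference of 2.52 was 3.59 without normal mucosa 1, and the call was lost without normal mucosa 2 (2.29), 4 (2.12) or 6 (2.09).

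Tight junction genes fell in 8 of 17 and rose in 2 (median -0.41), and falls numbered 5 without normal mucosa 2 or without adenocarcinoma 4. Ocln, which encodes occludin, read 9.65, 9.53, 9.84, 9.56 and 9.92 in tumours and 10.82, 11.07, 10.74 and 10.37 in normal mucosa. Tumours were lower without overlap (fell by 1.05 ± 0.13, adjusted p = 3.16e-05). Cxadr and Tjp1 (ZO-1) fell by 1.02 and 0.61. Desmosome and adherens junction genes changed little, 3 of 14 rising and 2 falling. Falls numbered 1 with cyclic loess and without normal mucosa 1 or 2 or adenocarcinoma 4, where Dsg2 was not called (-0.25 to -0.32). E-cadherin (Cdh1) differed by -0.16 and was not called.

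In the list of hemidesmosome, laminin and basement membrane genes 14 of 20 rose and none fell (median 0.88). The largest rises of the list were those of basement membrane genes. Lamc1, the γ1 chain found in most laminins, read 9.35, 9.84, 9.69, 9.66 and 10.06 in tumours and 6.95, 6.55, 6.71 and 7.42 in normal mucosa. A wide gap lay between the groups (2.81 ± 0.18, adjusted p = 1.54e-07). Nid1, the nidogen that links laminin to type IV collagen, read 9.87, 10.05, 10.20, 10.13 and 10.09 in tumours and 5.99, 6.83, 6.18 and 7.51 in normal mucosa. Tumours were uniform and normal mucosa 6 was the highest of the normal arrays (3.44 ± 0.26, adjusted p = 6.08e-07). Lama5, the α5 chain of the epithelial laminin-511, read 8.43, 9.05, 8.36, 8.76 and 9.63 in tumours and 7.29, 7.08, 6.89 and 7.30 in normal mucosa, without overlap (1.70 ± 0.22). Against inflamed mucosa Lama5 was 1.04 higher (adjusted p = 0.012), whereas Nid1 differed by only 0.02 and was not called. Of the plaque and of laminin-332, Col17a1, Lama3 and Lamb3 were not called (-0.09, 0.18 and 0.39), though Lamb3 was without normal mucosa 1 or 2 (0.49 in both). Plec rose by 0.44, a call lost without adenocarcinoma 2 (0.37) or normal mucosa 4 (0.33).

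Matrix proteases and their inhibitors rose in 18 of 21, 17 of the 21 without overlap, and none fell (median 2.22). The promoters of Mmp13 and Mmp10 are shown because both genes were low on all normal arrays and high in all tumours, and both carry, close to the start, a TGANTCA sequence, the binding motif of AP-1 factors. They are 250 bases up to the annotated start, from RefSeq on build GRCm38.p6, at chr9:7272264-7272513 and chr9:7502092-7502341, both on the plus strand, with the motif in capitals.
Mmp13: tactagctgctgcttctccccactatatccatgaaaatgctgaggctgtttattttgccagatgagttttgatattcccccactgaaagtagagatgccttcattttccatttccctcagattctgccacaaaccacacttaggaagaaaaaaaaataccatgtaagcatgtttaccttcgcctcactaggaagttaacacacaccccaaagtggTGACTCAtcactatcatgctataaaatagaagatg
Mmp10: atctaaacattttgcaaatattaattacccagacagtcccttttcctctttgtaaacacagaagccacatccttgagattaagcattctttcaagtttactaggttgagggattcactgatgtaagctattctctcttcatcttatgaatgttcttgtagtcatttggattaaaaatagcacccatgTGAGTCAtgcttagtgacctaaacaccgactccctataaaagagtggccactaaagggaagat
TGANTCA, searched on both strands, was present in 5 of the 15 protease promoters listed (33.3%), those of Mmp3, Mmp7, Mmp10, Mmp13 and Plaur, and in 6.87% of all 27025 promoters of that length. A match describes the sequence only and shows no binding.

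Mmp13, a collagenase (cluster 10583044), read 11.47, 11.64, 10.78, 11.51 and 12.12 in tumours and 5.55, 5.42, 5.52 and 5.60 in normal mucosa. The normal arrays were at background and all tumours were strongly above it (measured difference 5.98 ± 0.32, a lower bound, adjusted p = 3.68e-08). Mmp10, a stromelysin, read 10.72, 11.11, 10.19, 10.999 and 11.19 in tumours and 6.21, 6.23, 6.29 and 6.29 in normal mucosa, with the same separation (4.58 ± 0.20, adjusted p = 5.78e-09). Mmp8, the collagenase of neutrophils, read 6.15, 8.05, 6.89, 9.68 and 8.59 in tumours and 4.54, 4.57, 4.27 and 4.31 in normal mucosa. It varied most among tumours, lowest in tumour 1 and highest in tumour 4, and with the normal arrays at background the difference of 3.45 ± 0.51 is a lower bound. Inhibitors rose beside the enzymes, Timp1 by 2.79 and Timp2 by 3.12, while Timp3 and Timp4 differed by 0.11 and 0.02 and were not called. In inflamed mucosa Mmp13 averaged 6.65 and Mmp10 6.75, and tumours were 4.86 and 4.09 higher (adjusted p = 2.7e-06 and 7.9e-08). Timp2 in contrast averaged 10.1 in inflamed mucosa, close to the tumours.

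All 21 genes of the interstitial matrix rose, 19 of them at least 2-fold (median 2.80). Tnc, tenascin C, read 10.20, 10.77, 10.46, 10.59 and 10.95 in tumours and 5.49, 5.48, 5.66 and 6.86 in normal mucosa. Normal mucosa 6 stood above the other normal arrays but far below the tumours (4.72 ± 0.25). Col12a1, a collagen that decorates fibrils, read 10.24, 10.73, 10.27, 10.88 and 10.75 in tumours and 5.85, 5.90, 5.77 and 6.38 in normal mucosa, both groups tight and far apart (4.60 ± 0.16, adjusted p = 1.21e-09). These genes also differed from inflamed mucosa, Tnc by 1.29 and Col12a1 by 2.15 (adjusted p = 0.0076 and 9e-06). For others no such difference was called: Fn1, Bgn and Dcn were 4.43, 3.88 and 3.93 higher than in normal mucosa and were not called against inflamed mucosa. Normal mucosa 6 held the highest normal values of Bgn and Dcn, and without it their differences were 4.62 and 4.70.

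Fibroblast genes rose in 13 of 18 and none fell (median 1.56). Wnt5a, a non-canonical Wnt ligand, read 8.71, 9.14, 8.73, 9.501 and 8.85 in tumours and 6.08, 5.75, 6.08 and 6.08 in normal mucosa, all tumours well above (2.99 ± 0.17, adjusted p = 4.06e-08). Inhba, the activin A chain, read 9.17, 9.31, 8.38, 9.45 and 9.39 in tumours and 6.11, 6.35, 6.18 and 6.10 in normal mucosa. Tumour 3 was the lowest tumour and there was no overlap (2.96 ± 0.19). Il11, a cytokine of activated fibroblasts, read 7.11, 7.86, 6.75, 7.94 and 8.16 in tumours and 5.67, 6.09, 5.92 and 5.81 in normal mucosa, again apart (1.70 ± 0.24, adjusted p = 0.000142). These 3 genes were also higher than in inflamed mucosa, by 1.05, 1.81 and 1.81 (adjusted p = 0.002, 9.6e-05 and 0.00066). Grem1, a BMP antagonist of the stroma, read 10.17, 10.67, 10.23, 11.04 and 10.66 in tumours and 7.53, 7.64, 7.37 and 7.68 in normal mucosa, a clear separation (3.0 ± 0.19), yet it differed from inflamed mucosa by only 0.08 and was not called there. Fap, often used to mark tumour fibroblasts, was near background in both groups and differed by -0.19.

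Smooth muscle genes were higher in tumours than in scraped mucosa and lower than in the inflamed tissue beside them. Of 13 measured 10 rose against normal mucosa (median 1.52) and 11 were lower than in inflamed mucosa (median -2.04). Des, the muscle intermediate filament, read 7.62, 8.12, 8.12, 8.18 and 8.35 in tumours and 6.44, 6.48, 5.77 and 7.55 in normal mucosa. Normal mucosa 6 came close to the lowest tumour (1.52 ± 0.32, adjusted p = 0.0027). In inflamed mucosa Des averaged 11.32. The list mean lay between 8.44 and 8.70 in tumours and at 6.87, 7.01, 6.63 and 7.84 in normal mucosa, so normal mucosa 6 held the most muscle transcript of the normal arrays. Endothelial and angiogenesis genes rose in 15 of 20, all 15 without overlap, and 1 fell. That gene, the growth factor Vegfa (-0.38), was not called with the replicate block, array weights or only the 2 groups compared, nor without adenocarcinoma 1, 2 or 3 or normal mucosa 1 or 2 (-0.28 to -0.38). Cdh5, the cadherin of vessel walls, read 9.28, 9.42, 9.19, 9.69 and 9.63 in tumours and 5.68, 5.87, 6.13 and 6.63 in normal mucosa, with a wide gap (3.37 ± 0.18, adjusted p = 3.68e-08). Of 11 markers of enteric nerves 2 rose and 2 fell, counts that for falls were 0 with the replicate block or cyclic loess and 1 without adenocarcinoma 2, 3 or 4, normal mucosa 1 or 2, or inflamed mucosa 1, 3 or 4. Ret, a receptor tyrosine kinase of the enteric nervous system, read 8.80, 8.28, 8.78, 8.87 and 8.73 in tumours and 6.74, 6.69, 6.31 and 6.44 in normal mucosa, with no overlap (2.15 ± 0.15), while the glial marker Sox10 was not called (-0.20).

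Signalling genes were read by pathway. In the EGF family 9 of 19 rose and 2 fell. The ligand epiregulin, Ereg, read 8.22, 9.01, 7.003, 7.77 and 9.29 in tumours and 5.38, 5.36, 5.32 and 5.72 in normal mucosa. All tumours were higher, tumour 3 least, and the normal mean was at background (difference 2.82 ± 0.40, a lower bound, adjusted p = 0.000135). The receptors split, with Egfr 0.71 higher, Erbb2 1.00 lower and Erbb3 0.98 lower. Erbb3 read 10.76, 10.72, 11.18, 10.66 and 10.77 in tumours and 12.00, 11.93, 11.66 and 11.62 in normal mucosa, the groups apart with tumour 3 the highest tumour (adjusted p = 0.000292). Feedback and target genes of the ERK cascade rose, Spry4 by 1.74, Phlda1 by 1.90, Etv4 by 1.13 and Etv5 by 1.02. The ligands Egf, Tgfa and Hbegf were not called (-0.22, -0.24 and 0.34).

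Prostaglandin genes changed on both sides of the pathway, 7 of 17 rising and 4 falling. Ptgs2, cyclooxygenase 2, read 10.58, 10.96, 9.40, 10.57 and 11.25 in tumours and 6.53, 5.91, 6.25 and 6.99 in normal mucosa. Tumours were far above, tumour 3 the lowest of them (4.13 ± 0.30, adjusted p = 3.75e-07). Ptges, the synthase that makes prostaglandin E2, read 8.85, 9.40, 9.06, 9.63 and 9.51 in tumours and 7.27, 6.90, 6.72 and 7.12 in normal mucosa, again without overlap (2.29 ± 0.16). Hpgd, the dehydrogenase that inactivates it, read 10.51, 10.69, 11.10, 10.35 and 9.39 in tumours and 12.09, 12.36, 12.30 and 11.92 in normal mucosa. This enzyme was lower in every tumour (fell by 1.76 ± 0.25, adjusted p = 0.000132), and so was its partner Slco2a1, the prostaglandin importer, by 1.61. Of the receptors, Ptger3 fell by 1.44, and Ptger1 and Ptger2 were not called (0.03 and 0.04).

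In the TGF-β and BMP pathway 18 of 28 rose and 5 fell (median 1.06). Bmp2, made by surface epithelium, read 9.80, 9.62, 9.65, 9.48 and 9.81 in tumours and 10.93, 10.77, 10.92 and 10.52 in normal mucosa, lower in all tumours (fell by 1.11 ± 0.13, adjusted p = 2.24e-05). Bmp7 read 8.74, 8.95, 8.60, 9.46 and 9.31 in tumours and 7.17, 6.92, 6.53 and 6.63 in normal mucosa, higher in all (2.20 ± 0.18). Antagonists and carriers rose with it, Fst by 1.1997 and Fstl1 by 4.18. Of the other ligands, Bmp4 rose by 2.98 (3.58 without normal mucosa 6) and Tgfb1 by 1.46. The direct BMP targets Id1 and Id2 fell by 0.78 and 0.72, as did the inhibitor Smad7 by 0.64.

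**Figure D4:**
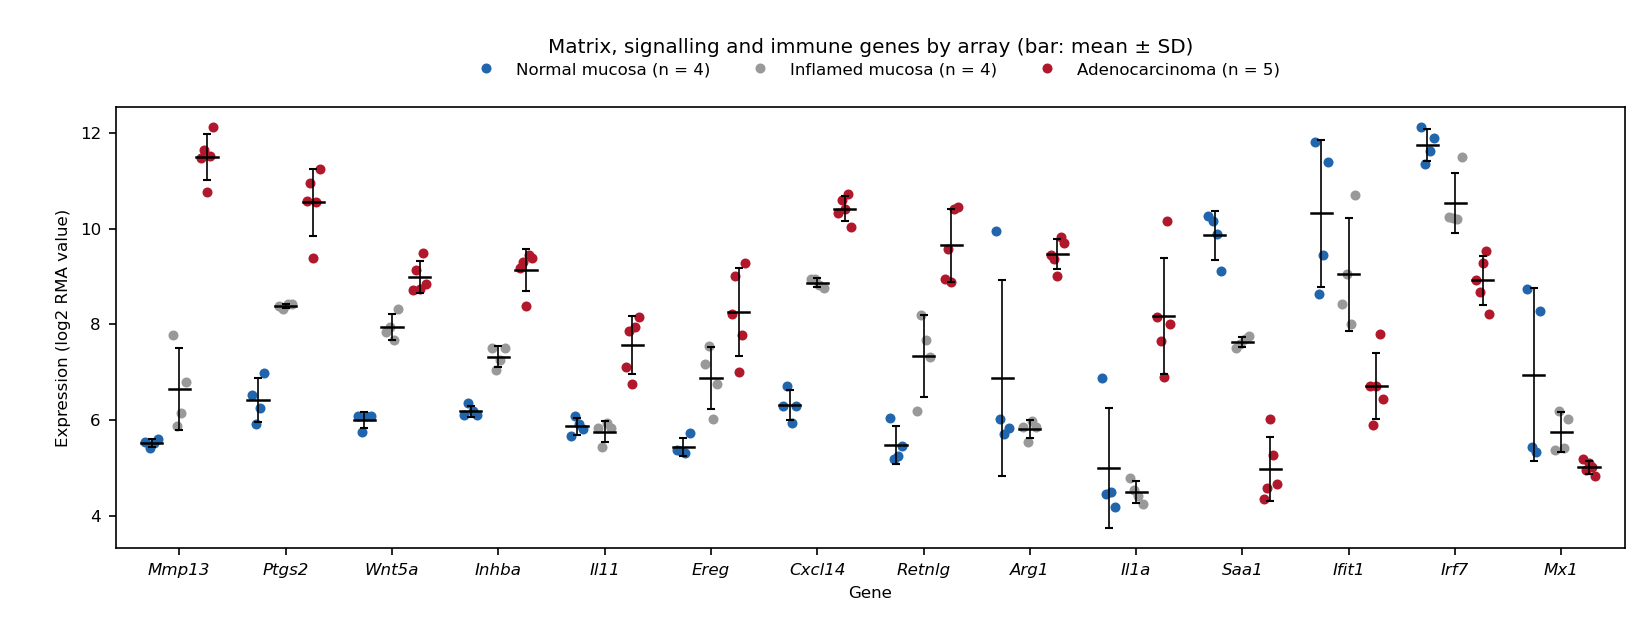
Log2 expression of 14 matrix, signalling and immune genes in normal mucosa (blue, n = 4), inflamed mucosa (grey, n = 4) and adenocarcinoma (red, n = 5), 1 point per array, with bars for the mean and SD. Mmp13, Ptgs2, Wnt5a, Inhba and Cxcl14 lie higher in every tumour than in any other array, normal mucosa 1 is the outlying blue point of Arg1 and Il1a, and Saa1, Ifit1 and Irf7 lie lower in every tumour than in any normal array.

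Neutrophil genes rose in 14 of 17 and 1 fell (median 1.73). In 6 of them all tumours lay above all normal arrays. Retnlg read 8.95, 9.58, 8.89, 10.40 and 10.46 in tumours and 6.05, 5.18, 5.25 and 5.45 in normal mucosa, tumours 4 and 6 highest (4.17 ± 0.41 from a normal mean at background, a lower bound, adjusted p = 4.98e-06). S100a9, a calprotectin subunit, read 8.51, 9.07, 8.66, 10.42 and 10.91 in tumours and 7.53, 6.38, 6.40 and 5.87 in normal mucosa. Again tumours 4 and 6 were on top and normal mucosa 1 was the highest normal array (2.97 ± 0.46). The list mean followed the same order, with 8.72 and 8.38 in tumours 4 and 6, between 7.26 and 7.44 in the other tumours, 6.70 on normal mucosa 1 and at most 6.05 on the other normal arrays. Of the granule genes made in the marrow Elane fell by 0.37 and Mpo was not called (-0.18), and neither was the surface antigen Ly6g (-0.04). Against inflamed mucosa 10 of the 17 were higher and none was lower, and S100a9 was 3.35 higher (adjusted p = 0.00076).

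Macrophage genes rose in 13 of 21 against normal mucosa (median 0.92), while against inflamed mucosa 3 were higher and 3 lower (median -0.48), or 6 lower with the random replicate block. Arg1, arginase of alternatively activated macrophages and also of other myeloid cells, read 9.45, 9.37, 9.02, 9.82 and 9.70 in tumours and 9.95, 6.02, 5.71 and 5.83 in normal mucosa. Normal mucosa 1 was above every tumour, so the groups overlapped, and the difference was 2.59 ± 0.66 with that array and 3.62 without it. In inflamed mucosa Arg1 averaged 5.81, so tumours were 3.66 higher (adjusted p = 0.0042). The complement genes C1qa, C1qb and C1qc rose by 1.12 to 1.25 and the mannose receptor Mrc1 by 1.88.

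Lymphocyte genes were read in separate lists. T and NK cell genes fell in 6 of 24 and rose in 2, where 19.4% and 16.4% of all genes did. Their median of -0.36 was -0.11 without normal mucosa 1, and that of all genes on all arrays was -0.10. The counts moved to 4 rises and 4 falls without normal mucosa 1, to 10 falls without normal mucosa 4 and to 3 falls without adenocarcinoma 3. The list mean overlapped between tumours (5.84 to 6.08) and normal mucosa 2, 4 and 6 (5.86 to 6.04). B and plasma cell genes rose in 6 of 14 and 1 fell. Jchain, which joins secreted antibodies, read 11.80, 12.13, 12.25, 12.08 and 10.44 in tumours and 9.68, 6.18, 8.29 and 10.35 in normal mucosa. Tumour 6 stood below the other tumours, next to normal mucosa 6 (3.12 ± 0.64, and 2.30 without normal mucosa 2). The transport receptor for that antibody, Pigr, fell by 0.60. Of 12 mast cell genes 1 was called, Gata2, a factor of several blood lineages, at 0.28, and not when adenocarcinoma 3, 4 or 6 or normal mucosa 4 or 6 was left out (0.24 to 0.29). The median of that list against inflamed mucosa was -0.95.

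Chemokines rose in 9 of 32 and fell in 6 (median 0.12, and 0.35 without normal mucosa 1). Rises numbered 11 without normal mucosa 1 and 6 without normal mucosa 2 or 6. The list mean was 7.79 on normal mucosa 1, above every tumour except number 4 (7.88). The rises included ligands of neutrophil receptors, Cxcl2 by 2.93 and Cxcl5 by 1.99. Cxcl14 read 10.33, 10.59, 10.41, 10.73 and 10.04 in tumours and 6.30, 6.71, 5.93 and 6.29 in normal mucosa, with the groups tight and far apart (4.11 ± 0.15, adjusted p = 1.82e-09). Ccl28, which draws antibody-secreting cells to mucosa, read 10.22, 9.90, 10.28, 9.83 and 8.98 in tumours and 11.67, 11.28, 11.50 and 11.23 in normal mucosa, lower in all tumours (fell by 1.58 ± 0.23). Ccl20, made by epithelium over lymphoid follicles, fell by 1.86. Falls numbered 3 with the replicate block and without adenocarcinoma 1, 2 or 6.

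In the list of cytokines and the STAT3 pathway 11 of 33 rose and 5 fell. Il1a, interleukin 1α, read 8.16, 7.66, 6.90, 10.15 and 8.01 in tumours and 6.88, 4.45, 4.504 and 4.18 in normal mucosa. Tumour 3 and normal mucosa 1 were nearly level and tumour 4 was the highest (3.17 ± 0.60, and 3.799 without normal mucosa 1). Il1b rose by 2.60 and its decoy receptor Il1r2 by 1.62. The receptors Osmr and Il6st rose by 2.56 and 1.57 and the feedback inhibitor Socs3 by 1.24, while Il22ra1, the epithelial receptor of interleukin 22, fell by 1.204. Of the T cell cytokines Il17a fell by 0.33 and Il17f was not called (-0.17). Falls numbered 3 without normal mucosa 2 or without adenocarcinoma 1, 2 or 3.

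Of 32 acute phase and antimicrobial genes 13 rose, all 13 by at least 2-fold and without overlap, and 5 fell. The serum amyloid genes moved in opposite directions. Saa3 read 10.35, 11.75, 10.50, 12.08 and 12.22 in tumours and 6.68, 6.88, 6.26 and 6.02 in normal mucosa, higher in every tumour (4.92 ± 0.35, adjusted p = 3.46e-07). Saa1 read 4.35, 4.59, 6.02, 5.28 and 4.66 in tumours, mostly at background, and 10.26, 10.15, 9.90 and 9.13 in normal mucosa, lower in every tumour (fell by 4.88 ± 0.30, a lower bound, adjusted p = 9.79e-08). Saa2 fell by 1.16. Members of such families can share probes, so the split rests on clusters that may not separate them fully. The lectin Reg3g read 8.94, 8.71, 11.09, 11.03 and 10.53 in tumours and 6.10, 5.40, 5.10 and 5.37 in normal mucosa, so that tumours 1 and 2 were well below tumours 3, 4 and 6 and above all normal arrays (4.57 higher in the tumour mean, a lower bound). Lrg1, a glycoprotein induced by interleukin 6, rose by 4.40 ± 0.19.

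Interferon response genes had the lowest median of the 44 lists. Of 27 measured 23 fell, each at least 2-fold, and none rose (median -1.93), with 18 of 27 below every normal array in every tumour. The promoters of Ifit1 and Rsad2 are shown because these genes fell 12.2-fold and 8.84-fold and both hold GAAANNGAA, the core of the element bound by interferon-stimulated factors. They are 250 bases from RefSeq on GRCm38.p6, at chr19:34640639-34640888 on the plus strand and chr12:26456453-26456702 on the minus strand, read 5′ to 3′ on the gene's strand. Capitals mark the motif on either strand, and in Ifit1 2 of its 3 matches overlap.
Ifit1: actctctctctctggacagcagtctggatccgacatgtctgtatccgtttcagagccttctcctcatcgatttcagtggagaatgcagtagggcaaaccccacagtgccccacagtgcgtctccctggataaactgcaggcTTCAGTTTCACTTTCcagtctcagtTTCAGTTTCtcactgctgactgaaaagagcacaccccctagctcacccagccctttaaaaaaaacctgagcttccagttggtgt
Rsad2: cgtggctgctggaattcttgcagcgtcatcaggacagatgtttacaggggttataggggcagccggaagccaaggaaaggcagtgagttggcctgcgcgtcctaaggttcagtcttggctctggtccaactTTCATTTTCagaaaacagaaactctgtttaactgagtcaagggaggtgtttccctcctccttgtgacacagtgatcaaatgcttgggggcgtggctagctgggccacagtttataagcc
The motif was found in 10 of 19 interferon response promoters (52.6%), against 7.16% of all 27025 promoters, a description of sequence and not of binding.

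Ifit1, an antiviral RNA-binding protein (cluster 10462623), read 6.71, 5.90, 6.71, 7.80 and 6.45 in tumours and 11.81, 8.63, 9.45 and 11.39 in normal mucosa. The normal arrays split, with females 1 and 6 high and males 2 and 4 lower, and all tumours lay below all of them (fell by 3.61 ± 0.66, adjusted p = 0.000892). Irf7, the transcription factor that amplifies type I interferon, read 8.92, 8.67, 9.28, 9.53 and 8.22 in tumours and 12.12, 11.36, 11.63 and 11.89 in normal mucosa, with a clear gap (fell by 2.83 ± 0.30, adjusted p = 9.7e-06). The sensors Ifih1 and Ddx58 fell by 1.79 and 1.46, and Stat2 and Irf9 of the signalling complex by 1.35 and 1.32. Only 3 of the 27 were called lower than in inflamed mucosa, or 5 with the random replicate block, Ifit1 among them at -2.33 (adjusted p = 0.048, and 0.0567 with the replicate block). The mean of the interferon list was 10.66 on normal mucosa 1, 9.82 on normal mucosa 6, and 8.03 and 8.35 on normal mucosa 2 and 4. Tumours lay between 6.89 and 7.86. The T and NK cell and squamous means were 7.12 and 9.18 on normal mucosa 1 and 5.94 and 5.93 on normal mucosa 6. Whether squamous or lymphoid cells had a part in the interferon values was not tested.

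Of 16 genes of antigen presentation 9 fell, with none rising at this threshold (median -0.87). The list mean was 10.86, 9.42, 9.45 and 9.94 in normal mucosa and between 8.91 and 9.45 in tumours. Normal mucosa 2 thus lay below tumour 4. Without normal mucosa 1 the median was -0.60 and 8 genes fell. B2m, which encodes β2-microglobulin of class I complexes, read 11.88, 11.84, 12.14, 12.17 and 11.56 in tumours and 12.94, 12.62, 12.70 and 12.79 in normal mucosa, lower in every tumour (fell by 0.84 ± 0.13, adjusted p = 0.000187). The loading factor Tapbp fell by 0.96 and the immunoproteasome subunits Psmb8, Psmb9 and Psmb10 by 1.34, 0.96 and 0.85. The class II genes H2-Aa, H2-Ab1, H2-Eb1 and Cd74 were not called.

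Both groups held females and males, so the tumour difference was also compared between the sexes. The interaction term called 1 of 19938 genes (0.00502%), Mx1, an interferon-induced GTPase, and 1931 genes had an unadjusted p below 0.05. Mx1 read 5.18, 4.95, 5.10, 5.03 and 4.83 in tumours and 8.75, 5.45, 5.34 and 8.27 in normal mucosa. It was at background in all tumours and in the male normal arrays, and high on the female normal arrays alone. Its tumour difference was 3.14 more negative in females than in males (-3.14, adjusted p = 0.0271, 2 females a group, 3 and 2 males). Over both sexes Mx1 fell by 1.93 (adjusted p = 0.0212), a call lost without normal mucosa 1 (-1.34, adjusted p = 0.0588) or normal mucosa 6 (-1.49, adjusted p = 0.0627). Leaving out 1 array moved the count of genes with a sex difference from 0 (without adenocarcinoma 2, 3, 4 or 6 or normal mucosa 2) to 7 without adenocarcinoma 1 or inflamed mucosa 4, 30 without normal mucosa 1 and 306 without normal mucosa 6, where the lone female normal array is assumed to vary like the others.

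Proliferation genes were higher in tumours, but less evenly than the matrix genes. Of 19 mitosis genes 13 rose and none fell (median 0.93), while rises numbered 5 without normal mucosa 2 and 8 without adenocarcinoma 4. Mki67, the marker of cycling cells, read 9.91, 9.80, 9.98, 9.99 and 10.01 in tumours and 8.54, 7.25, 9.14 and 9.66 in normal mucosa. Tumours were almost equal, and normal mucosa ranged widely with its top array just below them (1.29 ± 0.39, adjusted p = 0.02). Without normal mucosa 2 the difference was 0.83 and the call was lost (adjusted p = 0.0537). The list mean showed the same, between 8.22 and 8.60 in tumours and at 7.41, 6.48, 7.80 and 8.11 in normal mucosa.

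Of 24 DNA replication genes 13 rose and none fell (median 0.43). Promoters of helicase subunits are shown because they hold TTTGGCGC or TTTCCCGC, forms of the site of E2F factors, at chr1:128359706-128359955 for Mcm6 and chr5:138171884-138172133 for Mcm7 on GRCm38.p6, both on the minus strand and with matches on either strand in capitals.
Mcm6: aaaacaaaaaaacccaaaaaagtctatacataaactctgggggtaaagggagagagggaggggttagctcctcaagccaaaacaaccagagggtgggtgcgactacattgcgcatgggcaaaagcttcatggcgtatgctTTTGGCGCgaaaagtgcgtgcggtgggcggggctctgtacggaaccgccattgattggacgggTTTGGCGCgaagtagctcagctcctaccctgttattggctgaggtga
Mcm7: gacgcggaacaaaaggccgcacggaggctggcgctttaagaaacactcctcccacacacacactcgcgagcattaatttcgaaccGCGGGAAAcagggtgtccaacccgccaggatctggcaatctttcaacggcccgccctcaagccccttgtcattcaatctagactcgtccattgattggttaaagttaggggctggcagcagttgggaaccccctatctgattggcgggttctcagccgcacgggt
Either motif was present in 5 of 20 replication promoters (25%) and in 1.35% of all promoters. Mcm6 read 8.22, 8.62, 8.69, 8.83 and 8.49 in tumours and 7.60, 6.26, 7.96 and 7.98 in normal mucosa. Tumours were above all normal arrays, of which normal mucosa 2 was far the lowest (1.12 ± 0.28, adjusted p = 0.00767). Rrm2, which makes deoxynucleotides, rose by 1.46 ± 0.17 and Mcm7 by 0.67 ± 0.17. Neither mitosis nor replication held a gene called against inflamed mucosa by limma, though with the random replicate block 1 replication gene was higher.

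Ribosome biogenesis genes rose in 23 of 24, 21 without overlap, and by moderate amounts, between 0.39 and 1.40 over the list (median 0.89). Nhp2, a core protein of the particles that modify ribosomal RNA, read 9.08, 8.80, 8.59, 8.81 and 8.93 in tumours and 7.22, 6.92, 7.63 and 8.003 in normal mucosa, all tumours higher (1.40 ± 0.20, adjusted p = 0.000132). Odc1, the first enzyme of polyamine synthesis, read 9.67, 9.77, 9.40, 9.47 and 9.63 in tumours and 8.39, 7.82, 8.68 and 8.48 in normal mucosa, without overlap (1.25 ± 0.18). Against inflamed mucosa the median was 0.15 and none was called by limma, or 2 were higher with the random replicate block. Of 17 p53 targets and cell cycle inhibitors 7 fell and 4 rose. The inhibitors Cdkn1b (p27) and Cdkn2b (p15) fell by 0.86 and 0.97, and Phlda3, an inhibitor of Akt signalling, rose by 1.86.

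Metabolic genes of the differentiated colonocyte were lower. Xenobiotic metabolism genes fell in 22 of 29, 16 at least 2-fold, and 3 rose (median -1.11). Cyp4f14, a fatty acid hydroxylase of the cytochrome P450 family, read 7.06, 7.12, 7.89, 7.004 and 6.29 in tumours and 10.86, 11.13, 10.72 and 10.55 in normal mucosa, far lower in all tumours (fell by 3.74 ± 0.26, adjusted p = 2.95e-07). The efflux pump Abcb1a fell by 1.78 and the glucuronosyltransferase Ugt2b34 by 1.56. Gpx2, the glutathione peroxidase of the gut epithelium, rose instead. It read 12.16, 12.15, 12.02, 12.45 and 12.49 in tumours and 10.44, 10.16, 11.07 and 11.45 in normal mucosa, higher in all tumours (1.48 ± 0.23, adjusted p = 0.000312).

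Ppargc1a, the coactivator of mitochondrial genes, read 7.84, 8.54, 8.91, 8.30 and 7.67 in tumours and 10.66, 10.28, 10.47 and 10.59 in normal mucosa. It was lower in every tumour (fell by 2.25 ± 0.26, adjusted p = 2.18e-05), yet genes of the respiratory chain and citrate cycle differed little, with 6 of 29 lower and a median of -0.13, near that of all genes. Those 6 were 3 without normal mucosa 1, 17 with arrays centred on their medians and 2 with cyclic loess. Fatty acid oxidation genes fell in 8 of 24 and 1 rose. Genes of glycolysis and the hypoxia response fell in 16 of 29 and 3 rose (median -0.34). Falls numbered 11 without normal mucosa 1 and 12 without normal mucosa 2. The list means overlapped, with 9.51 to 9.70 in tumours and 9.57 to 10.05 in normal mucosa. Bnip3, a mitophagy receptor induced by hypoxia, read 8.74, 8.43, 9.54, 9.25 and 8.62 in tumours and 10.57, 10.98, 11.02 and 10.09 in normal mucosa, without overlap (fell by 1.75 ± 0.23). Other hypoxia targets differed among themselves: Car9, Slc2a1 and Adm were not called (-0.01, -0.11 and 0.12), whereas Hilpda, a hypoxia-induced lipid droplet gene, rose by 1.24.

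Of 22 lipid synthesis genes 11 rose and 2 fell, and rises numbered 7 without normal mucosa 2. Falls numbered 1 with the replicate block, with array weights and without adenocarcinoma 1, 3 or 6 or normal mucosa 1 or 2, where Elovl6 was not called (-0.38 to -0.50). Fasn, fatty acid synthase, read 10.89, 10.98, 10.87, 10.63 and 10.58 in tumours and 9.75, 8.95, 9.75 and 10.44 in normal mucosa. Normal mucosa 6 was just below the lowest tumour (1.06 ± 0.22, adjusted p = 0.00245). Of 25 genes of protein folding and stress in the endoplasmic reticulum 10 rose and 3 fell, chaperones such as Hspa5 (0.55) and Pdia6 (1.04) among the rises and the stress factors Atf3 (-1.36) and Ddit3 (-0.50) among the falls. Asns, asparagine synthetase, read 10.73, 10.70, 10.78, 11.07 and 10.71 in tumours and 9.93, 9.44, 9.43 and 9.74 in normal mucosa, higher in all tumours with tumour 4 on top (1.16 ± 0.22).

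Some of the strongest differences lay in genes of no list. Aldh1a3, which makes retinoic acid, read 11.99, 11.84, 11.76, 11.95 and 12.34 in tumours and 8.99, 7.37, 8.46 and 7.23 in normal mucosa, all tumours nearly equal and above (3.96 ± 0.31, 15.6-fold, adjusted p = 7.48e-07). Dhrs9, a retinol dehydrogenase of the step before, read 11.50, 11.08, 11.18, 11.54 and 10.85 in tumours and 8.78, 7.70, 8.24 and 5.74 in normal mucosa. Normal mucosa 6 was by far the lowest array, and without it the difference was 2.99 in place of 3.61. Against inflamed mucosa Aldh1a3 was 3.05 higher (adjusted p = 9.6e-05) and Dhrs9 was not called (1.34), though it was with the replicate block (1.63, adjusted p = 0.0158) and the random one (1.37, adjusted p = 0.0448). The binding proteins of insulin-like growth factors Igfbp5 and Igfbp4 rose by 5.42 ± 0.24 and 3.90 ± 0.20, and the complement inhibitor Serping1 by 3.72 ± 0.39.

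Downwards, P2ry4, a nucleotide receptor that triggers chloride secretion, read 5.68, 5.29, 5.71, 5.54 and 5.79 in tumours and 9.21, 9.37, 8.64 and 8.76 in normal mucosa. It was near background in every tumour (fell by 3.39 ± 0.15, adjusted p = 6.31e-09). Sectm1b read 8.21, 8.62, 9.86, 8.87 and 7.35 in tumours and 12.79, 12.65, 12.75 and 12.55 in normal mucosa, with a wide gap (fell by 4.10 ± 0.35). Tgm3, a transglutaminase, fell by 5.39 ± 0.40, Prss30, a serine protease, fell by 4.52 ± 0.30, and Dio1, the deiodinase that activates thyroid hormone, fell by 3.65 ± 0.23. Ddx60 and Herc6, 2 further interferon-induced genes outside the list, fell by 3.96 ± 0.54 and 3.19 ± 0.48, with normal mucosa 1 and 6 again above normal mucosa 2 and 4.

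The tumours differed among themselves in a few genes far more than in most. The median SD over all genes was 0.155 among tumours and 0.187 in normal mucosa. Apart from genes of the sex chromosomes, the widest spreads were in Mptx1, Krt5, Psca, Krt6a, Krt6b, Klk1b22 and Defa24, none of which was called. Mptx1, a pentraxin of the gut epithelium, read 7.60, 11.90, 10.12, 6.42 and 5.10 in tumours and 5.76, 9.40, 10.43 and 10.93 in normal mucosa, so both groups covered most of the range. Psca, a surface antigen of squamous and other epithelia, read 5.58, 10.64, 8.78, 5.52 and 8.95 in tumours and 10.67, 5.73, 7.39 and 5.81 in normal mucosa. It was high on normal mucosa 1 and adenocarcinomas 2 and 3, which were also the arrays high in squamous markers, and in adenocarcinoma 6 as well. Krt13, a keratin of wet squamous epithelium, read 8.002, 10.32, 7.85, 8.72 and 9.03 in tumours and 11.20, 6.82, 6.53 and 6.31 in normal mucosa. It was not called (1.07 ± 0.84), and all tumours were above the other normal arrays, so without normal mucosa 1 it was called at 2.23 (adjusted p = 0.0027), as were 4 squamous genes in place of 1. Defa24, a Paneth cell defensin with close relatives, was at 7.83 in tumour 2 and at or below 4.27 on the other 8 arrays.

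**Figure D5:**
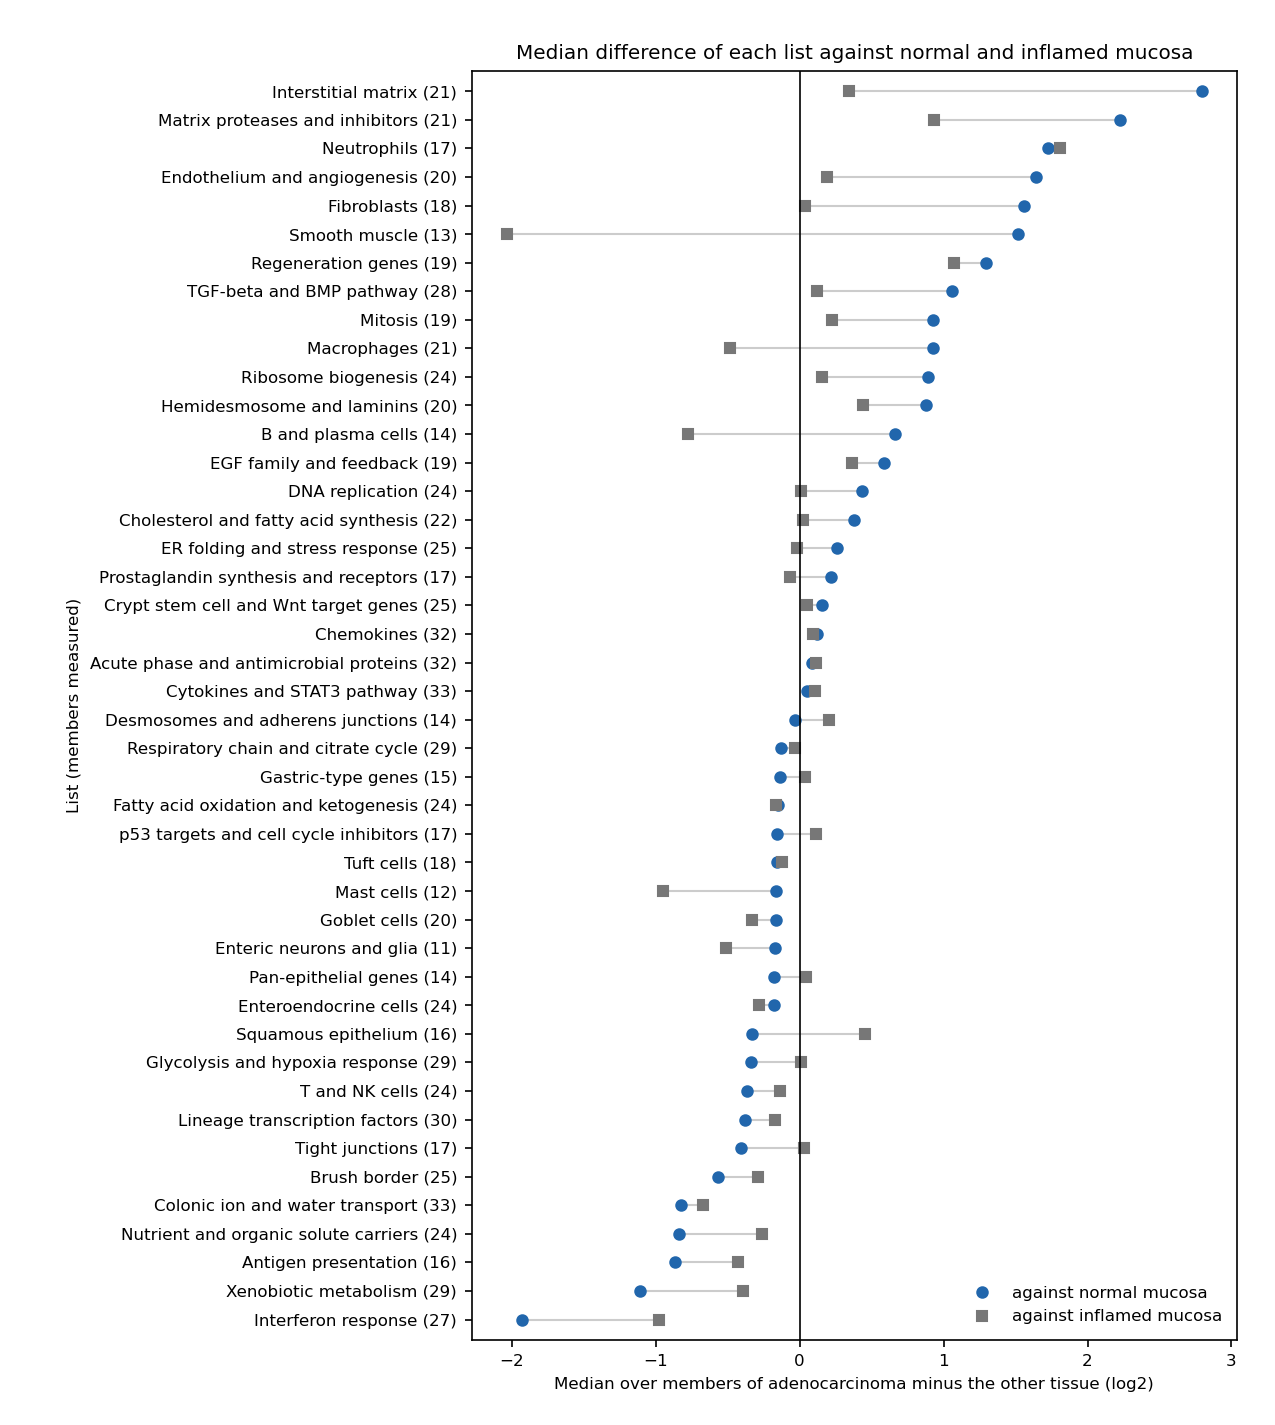
Median over the members of 44 gene lists of the difference between adenocarcinoma and normal mucosa (blue circles) and between adenocarcinoma and inflamed mucosa (grey squares), in log2 units, joined by a line for each list. Smooth muscle lies at 1.52 against normal and at -2.04 against inflamed mucosa, whereas neutrophils lie at 1.73 and 1.81.

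Set against the inflamed mucosa beside them, the same tumours differed in fewer genes, 581 higher (2.91%) and 839 lower (4.21%). These counts come from the fit without pairs. With the replicate number as a random block they were 938 and 1341, and with a fixed block 461 and 722. Of the genes given above and below by their difference from inflamed mucosa, Ifit1 and Dhrs9 changed call with a block. The higher genes numbered 302 without inflamed mucosa 2, 350 without inflamed mucosa 4, 377 without inflamed mucosa 3 and 380 and 382 without adenocarcinoma 2 and 6, and the lower genes 473 and 507 without inflamed mucosa 2 and 4. Both comparisons use the same tumour arrays, so their values are given side by side and not as independent results. Colonic transport genes were lower there in 14 of 33 and higher in none (median -0.67), Car4 by 4.87 and Slc9a3 by 4.95 (adjusted p = 1.1e-07 and 7.5e-08). Slc9a3 in fact averaged 10.66 in inflamed and 10.26 in normal mucosa. Xenobiotic metabolism genes were lower in 10 of 29 and higher in 1, and matrix proteases higher in 11 of 21 and lower in none. Of the stromal lists, interstitial matrix was higher in 9 of 21 and lower in 2 (median 0.34), fibroblasts higher in 5 of 18 and lower in 2 (median 0.04), endothelium higher in 4 of 20 and lower in none (median 0.19) and smooth muscle lower in 11 of 13. With the fixed block endothelium was higher in 2, and with the random one fibroblasts were lower in 4. Hemidesmosome and laminin genes were higher in 7 of 20 (median 0.44), among them Itga6 by 0.45 (adjusted p = 0.013) and Itgb4 by 0.59 (adjusted p = 0.0051).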

How the data were processed

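RNA of 13 rectal samples was read on Affymetrix Mouse Gene ST 1.0 arrays. Per the labels, scans were processed with Command Console 2.0 and the authors deposited RMA values from Expression Console 1.1, which are on a log2 scale by their range. No further scaling was applied. Transcript clusters numbered 35556, of which 21789 named 1 gene, 1621 several and 12146 were not listed in the platform annotation used. Symbols were updated through Entrez identifiers to RefSeq (GRCm38.p6) for 21698, and the cluster with the highest mean over the 13 arrays stood for a gene (999 genes had more than 1). The main test was limma 3.58.1 in R 4.3.3, in 1 fit of tumour, inflamed and normal groups over 19938 genes, with Benjamini-Hochberg adjusted p-values and a threshold of 0.05. The files gave no scan date, so no batch could be tested. The script was tested on simulated data.

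The members and the 44 gene lists (988 symbols, 924 measured) were chosen with earlier results of these data known. Genes named were the largest called differences per list, overall and outside the lists, the widest spreads among tumours and the smallest p-values of the sex interaction; other list members given by their difference alone were chosen after their values were seen. Promoters are the 250 bases before the first RefSeq start of a gene, searched on both strands, with 27025 promoters as the comparison.

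Deviations from group means correlated between tumour and inflamed arrays of the same number (0.319, 0.198, 0.199 and 0.387 for numbers 1 to 4), where per the labels inflamed mucosa was taken beside the tumours and same-numbered arrays share sex and age, so these numbers were taken as pairs. For tumour and normal arrays of the same number the values were -0.126, -0.108, 0.0413 and -0.037. Those arrays share sex and, except for number 6, age, but were not taken as pairs. The fixed replicate block still joined them by number. The alternatives were a fixed or random replicate block, sex or age as a covariate, only the groups compared, a filter on dim genes, centring, cyclic loess, every cluster, a trended robust variance, array weights and leaving out each array.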

Additional observations from a re-analysis of the deposited data

Results flagged for a closer look

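Groups of arrays were checked for a highest or lowest array far from the rest by Dixon's criterion, with tumours and normal mucosa counted apart. Of 240 groups (88 for list means and 152 for single genes), 18 held such an array. Chance alone marks about 1 in 20 groups picked without regard to their values. That rate does not hold here, since genes were picked with their values known. Krt5 and Defa24 were named for their spread among tumours, and Krt5 and Krt13 are also in the squamous list. Of the 18, 10 were normal arrays, 6 of them normal mucosa 1, and 8 were tumours.

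Normal mucosa 1 was the outlying normal array in the mean of squamous genes (9.18), the mean of T and NK cell genes (7.12), Krt5 (12.1), Krt13 (11.2), Arg1 (9.95) and Il1a (6.88), all of them higher than on the other normal arrays. The part of squamous tissue in this array's other values was not tested.

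The other outlying normal arrays were number 4 in the mean of prostaglandin genes (8.25), number 6 in Tnc (6.86) and Ereg (5.72), and number 2 in Wnt5a (5.75). Among tumours, number 4 stood apart in the mean of chemokines (7.88), Wif1 (8.76) and Asns (11.07), number 3 in Inhba (8.38) and Erbb3 (11.18), number 2 in Ret (8.28) and Defa24 (7.83), and number 6 in Jchain (10.44).

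Mx1 had a tumour difference that was more negative in females than in males, by -3.14 (limma interaction term, adjusted p = 0.0271), with the high values on the female normal arrays.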

How the results depend on the processing

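Of 343 named genes, 299 were called, 260 of these under each of the 24 alternatives run, and 0 called genes changed sign. The counts of at least 2-fold differences stayed within 1.5 times of their values under every alternative run. Where a call or count moved, the cause was not tested.

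Against normal mucosa, genes lower in tumours numbered 8612 with centred arrays and 2543 to 4374 without 1 array. With the replicate block 3222 were higher and 3341 lower. Against inflamed mucosa, where the numbers pair the arrays, the replicate block gave 461 higher and 722 lower, the random replicate block 938 and 1341, array weights 981 and 1315, and leaving out 1 array 302 to 662 and 473 to 990. Genes with a sex difference numbered 3 with only the 2 groups compared, 5 without the dimmest genes (14953 kept), 2 with centred arrays, 2 with the trended robust variance and 0 to 306 without 1 array, a check chosen after seeing the data.

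Centred arrays moved the list medians to -0.3144 for pan-epithelial genes, -0.5142 for lineage factors, -0.2976 for goblet, -0.3158 for enteroendocrine and -0.2934 for tuft cells, 0.01963 for stem and Wnt genes, -0.2694 for gastric-type genes, 0.74 for hemidesmosomes and laminins, -0.5448 for tight junctions, -0.1687 for desmosomes, -0.3085 for enteric nerves, 0.07892 for prostaglandins, 0.9249 for TGF-β and BMP, -0.2974 for mast cells, -0.2915 for p53 targets, -0.4739 for glycolysis, -0.2687 for the respiratory chain, -0.2871 for fatty acid oxidation and 0.1232 for the endoplasmic reticulum. Cyclic loess gave -0.06528 for pan-epithelial genes, 0.2791 for prostaglandins, -0.05012 for mast cells and -0.05855 for the respiratory chain. Without the dimmest genes the medians were 0.03229 for mast cells, a change of sign, 0.2279 for cytokines and 1.316 for acute phase genes, of which fewer were then measured. Centred arrays turned small medians to -0.01515 for chemokines, -0.08433 for cytokines and -0.0517 for acute phase genes, and cyclic loess that of desmosomes to 0.02042. Without normal mucosa 1 the squamous median was 0.3633 in place of -0.3334. Array weights gave -0.25 for tight junctions and 0.313 for acute phase genes, and leaving out 1 array -0.4476 to -0.2695 for tight junctions.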
